A study of Mus musculus with 2 samples.

Results

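Mir142 is the hairpin gene of miR-142, and its 2 arms, miR-142-5p and miR-142-3p, were followed here by their first base, length and 3' end in 2 small RNA libraries of mouse spleen cells. Members were the deposited sequences (tags) of 18 to 30 nt that equal a stretch of the 64 nt Mir142 hairpin, directly or after removal of 1 to 3 nt from the 3' end. There were 230 such tags with 198404 reads among 1185709 tags in the library called Ia_high, and 117 tags with 29247 reads among 758783 tags in the library called Ia_low. Together they made 247 distinct tags, 51 exact and 196 with an untemplated end, and the 100 tags found in both libraries held 226038 of the 227651 reads. No member tag lay on another miRNA hairpin or in another annotated transcript. The cells came from C57BL/6J mice, were taken from spleen with beads against CD11c, and were then separated by antibody staining for Ia (MHC class II) into a high and a low fraction, each positive for CD11c and labelled as dendritic cells, with a stated purity above 95%. No treatment, genotype or age is given in the labels used here. With 1 library per group there was no replicate check and no p-value is given. The number of animals behind each library is not given in the sources used here.

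A miRNA is cut from its hairpin in 2 steps, first by Drosha at the base of the stem and then by Dicer near the loop, and 1 strand of the resulting duplex is kept by an Argonaute protein. Bases 2 to 8 from the first base of that strand, the seed, pair with target mRNAs, so a read that starts 1 base further along carries another seed. Longer or shorter 3' ends, and bases added after cutting (tails), leave the seed as it is. miR-142 is made throughout the blood lineages and nearly only there, both of its arms are known to enter Argonaute, and its loss in mice disturbs several blood cell types, dendritic cells among them.

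The hairpin lies on chromosome 11 from 87756864 to 87756927, plus strand of GRCm38, within the intron of the long noncoding RNA gene Mir142hg, whose exons span 87755577 to 87755613 and 87757039 to 87757270. A second annotated hairpin, Mir142b, covers the same place on the minus strand. The hairpin and mature sequences below are those of RefSeq (GRCm38.p6). They are shown because every start named in the text is counted from the annotated first base of its arm (position 0), and capitals mark both annotated mature arms in the hairpin and the seed in each mature sequence.
Mir142 hairpin: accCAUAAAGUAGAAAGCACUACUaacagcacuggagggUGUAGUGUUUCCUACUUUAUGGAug
mmu-miR-142a-5p: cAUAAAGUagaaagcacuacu
mmu-miR-142a-3p: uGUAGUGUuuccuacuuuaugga

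For each start with at least 1% of the reads of its arm, the tag with the most reads over both libraries together follows. At the +1 start of miR-142-3p, the tag 1 base shorter at the 3' end led in Ia_high, with 1086 reads against 1080. The tags are given as deposited (T for U), with the seed in capitals, because the starts differ in the seed they carry.
miR-142-5p start -3, 22 nt: aCCCATAAagtagaaagcacta
miR-142-5p start -2, 20 nt: cCCATAAAgtagaaagcact
miR-142-5p start 0, 21 nt: cATAAAGTagaaagcactact
miR-142-3p start 0, 23 nt: tGTAGTGTttcctactttatgga
miR-142-3p start +1, 23 nt: gTAGTGTTtcctactttatggat
miR-142-3p start +2, 22 nt: tAGTGTTTcctactttatggat
miR-142-3p start +3, 22 nt: aGTGTTTCctactttatggatg
Of these 7 seeds, 2 are those of the annotated mature arms. The seed of the -2 start is also that of mmu-miR-142b, the annotated product of the opposite strand, and the seed of the +3 start is also that of mmu-miR-12205-5p. The other 3 were found in no mature mouse miRNA of the RefSeq table.

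The libraries held 16388303 reads (Ia_high) and 13739811 reads (Ia_low), of which 7403427 and 3643308 were assigned to miRNA arms by the same matching. Levels are given as CPM, reads scaled to 1000000 miRNA-assigned reads. On this scale 0 reads allow up to 0.405 CPM (Ia_high) and 0.823 CPM (Ia_low) when each read counts as 1 molecule. Reads were not independent molecules, so these bounds are too low. Intervals are exact 95% intervals after dividing read counts by the most common count among tags read more than once (4 in Ia_high, 9 in Ia_low). They cover counting error only, since reads amplified by PCR without molecular identifiers are not independent molecules. The libraries differed in length over all miRNAs, with 4.51% of miRNA reads at 20 nt in Ia_high and 1.19% in Ia_low, so the main comparisons are also given within a length. They also differed in cell type markers, read from fragments of mRNA: the 12 dendritic cell markers summed to 14317 in Ia_high and 7567 in Ia_low per 1000000 fragments, and the 7 Ly6C-low monocyte markers to 4826 and 12344. Of the dendritic cell list, which includes MHC class II genes that the sort itself selects on, 7 of 11 measured genes were lower in Ia_low, at least 2-fold with an interval that excludes 1, and 0 higher (over all 7010 genes 9.42% were lower and 6.11% higher). Of the monocyte list, 6 of 7 were higher. Among dendritic cell markers, Itgax, which encodes CD11c, had 320 and 77 fragments and was not called, Flt3 153 and 5, Zbtb46 56 and 1, and Xcr1 42 and 0, while Batf3 (5 and 0) was too rare to compare. B cell, NK cell, erythroid and platelet lists summed to at most 25 fragments each in either library. The neutrophil list summed to 28 and 50 fragments, or 86.4 (Ia_high) and 375 (Ia_low) per 1000000. Its 1 measured gene, Csf3r, was higher in Ia_low by the same rule (22 and 44 fragments, ratio 4.86, 2.85 to 8.52). The other genes of that list, S100a8, S100a9 and Ngp, were too rare to compare. In the T cell list Cd4 (114 and 1) and Cd8a (79 and 1), which dendritic cells also express, were present, and Cd3e and Cd3g were at 0 in both libraries. In sorted bulk cells, fewer cells of a type and less RNA per cell cannot be told apart. The part of these cell type and length differences in the results below was not tested.

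miR-142-5p was the more abundant arm in both libraries and was lower in Ia_low, while miR-142-3p differed by less than 2-fold. miR-142-5p had 174947 reads, 23630.5 CPM, in Ia_high. In Ia_low it had 21490 reads, 5898 CPM, and was 4.01-fold lower (interval 3.84 to 4.18). It ranked 9 of 691 detected arms in Ia_high and 21 of 456 in Ia_low. miR-142-3p had 23457 reads, 3168 CPM, and 7757 reads, 2129 CPM, 1.49-fold lower (1.39 to 1.60), at rank 37 and rank 40. The arms summed to 2.68% (Ia_high) and 0.803% (Ia_low) of the miRNA-assigned reads. Among the 258 arms whose 2 levels averaged 10 CPM or more, 72 (27.9%) were lower in Ia_low by the rule used for a call, at least 2-fold with an interval that excludes 1, and 23 (8.91%) were higher. miR-142-5p stood at rank 31 from the lowest ratio and miR-142-3p at rank 102. With all reads of the file as the total, log2 ratios moved by -0.77, and with the median arm set to 0 they moved by 0.32. The ratio of miR-142-5p was then 0.147 and 0.311, and that of miR-142-3p 0.394, which is past 2-fold, and 0.836.

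Within 1 length, as a share of all miRNA reads of that length, the difference in miR-142-5p was about 2-fold or less at 20 to 23 nt. Among miRNA reads of 20 nt, where this arm made up 31.4% (Ia_high) and 16.2% (Ia_low) of them, it was 1.93-fold lower (1.80 to 2.08), or 2.36-fold lower when set against the other miRNA reads of that length. At 21 nt it was 2.06-fold lower (1.90 to 2.24), at 22 nt 1.54-fold lower (1.43 to 1.65) and at 23 nt 1.44-fold lower (1.19 to 1.77). The 19 nt reads, 3501 and 50, gave 7.06-fold (3.14 to 20.3) and rest on few reads in Ia_low. Of these lengths, the call for 5p thus held at 19 nt and 21 nt and not at 20, 22 or 23 nt. Weighting Ia_high reads for the length difference of the other miRNAs left the arm 2.32-fold lower (2.22 to 2.42), with 55 of 253 arms (21.7%) lower by the same rule.

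miR-142-3p, read mostly at 22 and 23 nt, was 1.80-fold lower at 22 nt (1.63 to 1.996), where 37 of 230 arms (16.1%) were lower by the call rule. At 23 nt the ratio was 0.996 (0.878 to 1.13), so no difference was detectable at this depth, and at 24 nt it was 1.87-fold lower (1.46 to 2.42). At 21 nt, with 3.45% and 2.10% of the arm, the ratio was 0.675 (0.393 to 1.09). At the sparse ends, the 19 nt reads, 126 and 54, met the call rule in the opposite direction with a ratio of 4.25 (1.45 to 10.3). The median ratio of arms at 19 nt was 1.51, and miR-142-3p ranked 17 of 22 from the lowest. The 25 nt reads of miR-142-3p, 172 and 58, were 2.34-fold lower (1.02 to 6.45), rank 9 of 67. Weighted by length over all reads it was 1.498-fold lower (1.39 to 1.61), close to its unweighted value.

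**Figure D1:**
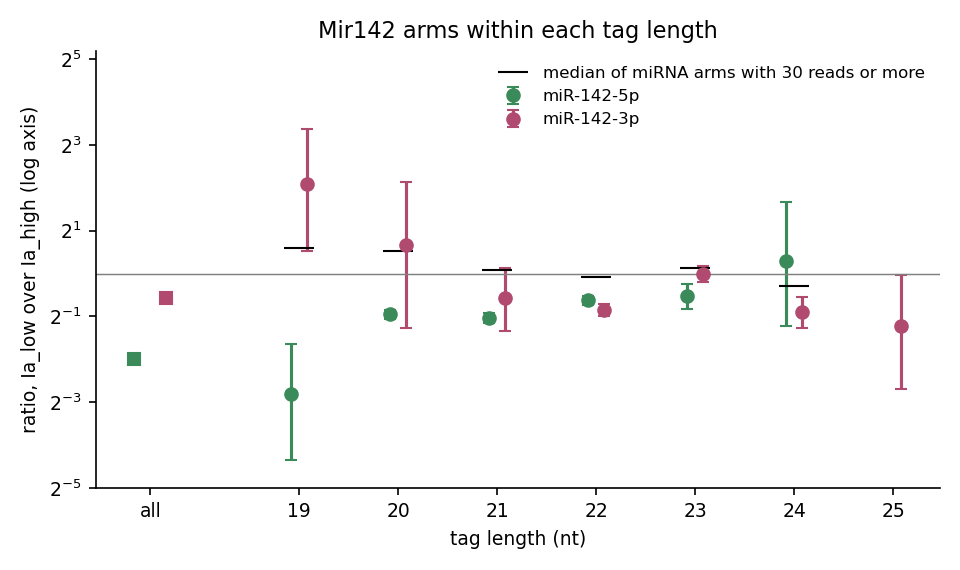
Ratio of Ia_low over Ia_high (log axis) for each Mir142 arm over all lengths (squares, left) and within each tag length in nt (circles), with 95% counting intervals; black dashes are the median ratio of miRNA arms with 30 reads or more in both libraries. miR-142-5p lies at 0.2496 over all lengths and between 0.485 and 0.693 at 20 to 23 nt, below the dash at each of these lengths.

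The balance of the arms moved with length. Over all reads, miR-142-5p outnumbered miR-142-3p 7.46 to 1 in Ia_high and 2.77 to 1 in Ia_low, a log2 difference of -1.43 (-1.55 to -1.31). This was the lowest difference of 34 hairpins with 100 reads or more on each arm in each library, whose median was -0.05. At 22 nt, where both arms are well covered, the balance was 1.67 in Ia_high and 1.96 in Ia_low, a log2 difference in the opposite direction of 0.23 (0.05 to 0.41). At 23 nt it was 0.540 and 0.376, a difference of -0.52 (-0.88 to -0.19), and at 21 nt 47.1 and 33.8, with an interval that included 0 (-1.18 to 0.32). The difference was -4.91 at 19 nt (-6.74 to -2.77), where Ia_low had 50 and 54 reads, -1.63 at 20 nt (-3.10 to 0.31) and 1.20 at 24 nt (-0.42 to 2.58). The balance in Ia_high thus ranged from 605 at 20 nt to 0.0394 at 24 nt.

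In both libraries most miR-142-5p reads began 2 bases before the annotated start. The -2 start, at position 87756865, had 140192 reads in Ia_high, 80.1% of the arm (79.8 to 80.5), and 16786 reads in Ia_low, 78.1% (76.4 to 79.8). The annotated start had 32373 reads, 18.5% (18.1 to 18.9), and 4218 reads, 19.6% (18.1 to 21.3). The interval of its difference, -0.49 to 2.81 percentage points, included 0. The seed that RefSeq's mature sequence gives this arm was therefore carried by under 20% of its reads in either library. The -3 start held 1529 and 457 reads, 0.874% (0.789 to 0.966) and 2.13% (1.59 to 2.79). At 22 nt it held 3.22% and 3.28% of the arm's reads, and the intervals of its difference included 0 at 20, 21, 22 and 23 nt. Starts at -1 (149 and 13 reads), +1 (700 and 16) and +2 (4 and 0) stayed under 1%.

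As levels, the -2 start had 18936 CPM (Ia_high) and 4607 CPM (Ia_low), 4.11-fold lower (3.92 to 4.31), and the annotated start 4373 and 1158 CPM, 3.78-fold lower (3.44 to 4.15). Weighted by length, these were 2.29-fold and 2.50-fold lower. Within 1 length the starts kept similar shares: at 20 nt the -2 start held 97.2% and 97.1% of the arm's reads, and at 22 nt 93.7% and 94.5%. At 21 nt, the annotated start led with 74.0% in Ia_high and 69.1% in Ia_low, a difference of -4.84 percentage points (-8.77 to -1.09), and the -2 start held 24.4% and 28.2%. Across 20 to 23 nt, the start that led the arm was the same in both libraries.

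**Figure D2:**
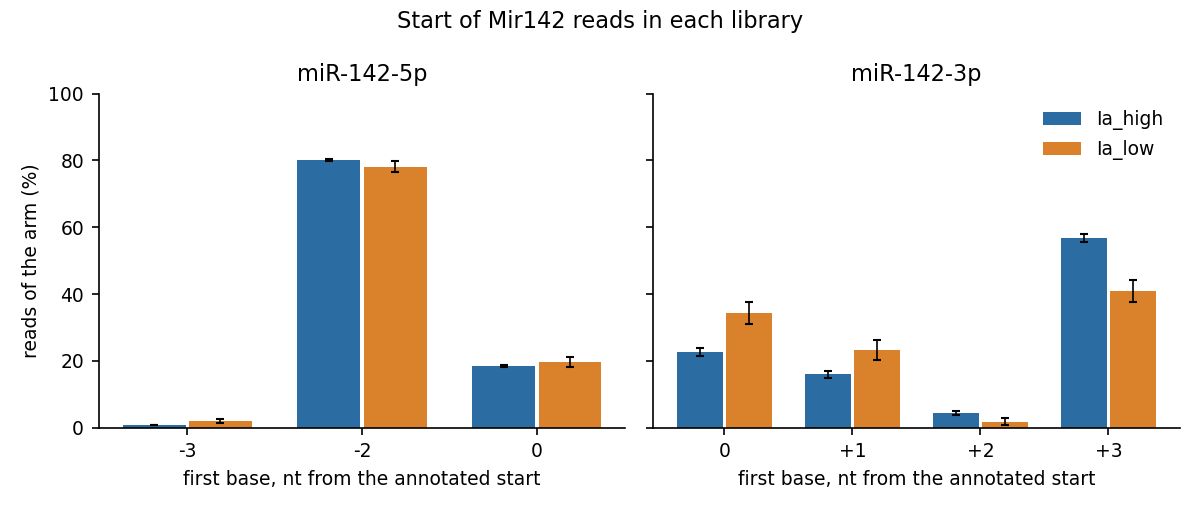
Share of the reads of each arm (%) that begin at each position, in nt from the annotated first base, in Ia_high (blue) and Ia_low (orange), for starts with at least 1% of the arm in either library; bars carry 95% counting intervals. The -2 start led miR-142-5p with 80.1% and 78.1%, and the share of the +3 start of miR-142-3p was 56.7% in Ia_high and 40.8% in Ia_low.

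What differed in miR-142-5p was the length of the reads from the -2 start. In Ia_high, 72.5% of them had 20 nt and 16.8% had 22 nt. In Ia_low, 40.7% had 20 nt and 43.5% had 22 nt. The single most abundant tag, cCCATAAAgtagaaagcact, had 101454 reads in Ia_high, 58.0% of the arm, and 6831 in Ia_low, 31.8%. The same start with 2 more bases, cCCATAAAgtagaaagcactac, had 18063 and 5552 reads, 10.3% and 25.8% of the arm. Both carry the same seed, so the change in length lay at the 3' end only. Reads from the annotated start were of 21 nt in 87.1% of cases in Ia_high and 90.4% in Ia_low.

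Other miRNAs also had fewer 20 and 21 nt reads in Ia_low relative to 22 nt, and at these lengths the shift of miR-142-5p was larger than their median. Relative to 22 nt, the 20 nt reads of miR-142-5p had a log2 ratio of Ia_low over Ia_high of -2.20, against a median of -1.05 for the other arms (quartiles -1.92 and -0.47), rank 12 from the lowest of 61 arms. At 21 nt the value was -1.09 against -0.46, rank 21 of 107, and at 23 nt 0.19 against 0.35, rank 46 of 127, a smaller shift than the median. For miR-142-3p the 20 nt value, on 173 and 36 reads, was -0.34 against -1.05 and the 21 nt value -0.39 against -0.46, both smaller. At 23 nt the value of miR-142-3p was 0.94 against 0.35, rank 110 of 127. At 24 nt both arms shifted more than the median of 0.57. There miR-142-5p had 1.72, rank 86 of 94, on only 62 and 63 reads, and miR-142-3p 0.75, rank 57.

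**Figure D3:**
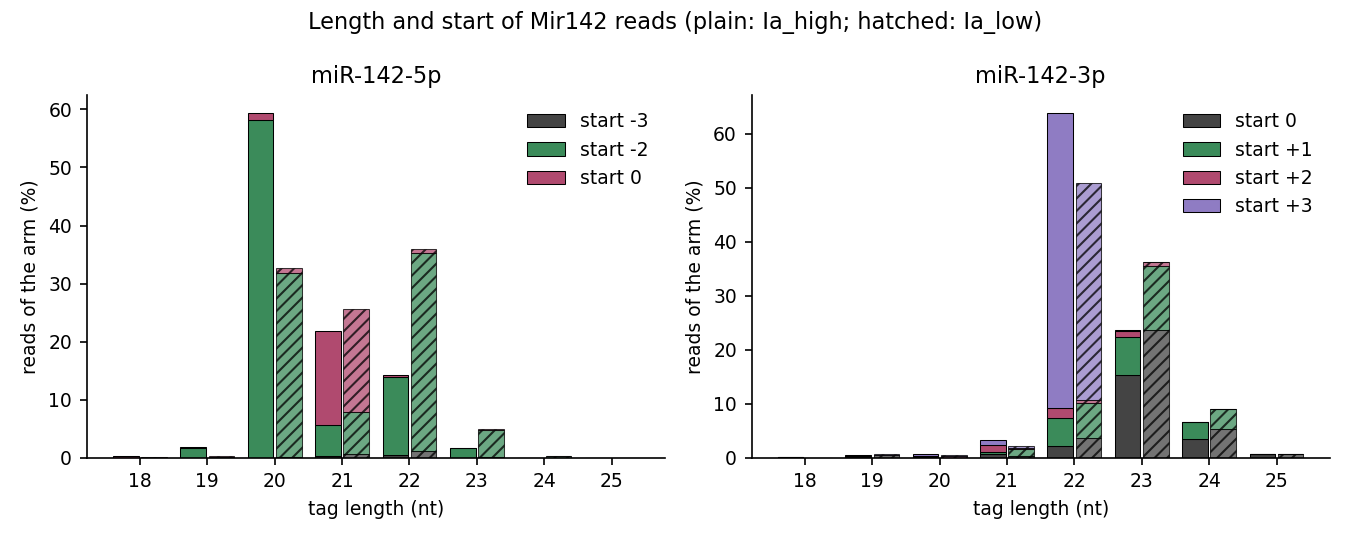
Share of the reads of each arm (%) by tag length in nt, split by start (colours, nt from the annotated first base), for Ia_high (plain bars) and Ia_low (hatched bars). The -2 start of miR-142-5p is mostly 20 nt in Ia_high and is spread over 20 and 22 nt in Ia_low; miR-142-3p is led by the +3 start at 22 nt and the annotated start at 23 nt.

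miR-142-3p used 4 starts, and their shares differed between the libraries. The annotated start, with 5325 reads in Ia_high and 2658 in Ia_low, had 22.7% (21.6 to 23.8) and 34.3% (31.1 to 37.5) of the arm, a difference of 11.6 percentage points (8.21 to 15.0). The +1 start had 3745 and 1800 reads, 16.0% (15.0 to 16.9) and 23.2% (20.4 to 26.2). The +3 start, 3 bases inside the annotated sequence, led in both libraries with 13307 and 3166 reads. Its share was 56.7% (55.4 to 58.0) in Ia_high and 40.8% (37.5 to 44.2) in Ia_low, a difference of -15.9 percentage points (-19.5 to -12.3). The +2 start held 1032 and 133 reads, 4.40% (3.89 to 4.96) and 1.71% (0.958 to 2.82).

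In levels, the annotated start had 719 CPM in Ia_high and 730 CPM in Ia_low (ratio 1.01), and the +1 start 506 and 494 CPM (ratio 0.977). The +3 start had 1797 and 869 CPM, 2.07-fold lower (1.85 to 2.32), and the +2 start 139 and 36.5 CPM, 3.82-fold lower (2.26 to 6.96). These levels follow the scaling, and the ratio of the annotated start falls below 1 when scaled to all reads, whereas the shares do not depend on it. Weighted by length, the +3 start was 1.90-fold lower and no longer met the call rule, and the +2 start was 3.398-fold lower, while the annotated and +1 starts were both 1.15-fold lower.

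Length and start were tied in this arm, so the shares were compared within a length. Of the +3 reads, 96.4% in Ia_high and 98.3% in Ia_low had 22 nt, and of the annotated start 67.7% and 69.3% had 23 nt. Among 22 nt reads of the arm, the +3 start held 85.6% and 79.0%, a difference of -6.56 percentage points (-10.8 to -2.66). The annotated start held 3.42% and 7.11%, a difference of 3.69 (1.37 to 6.56), and the +1 start 8.03% and 12.7%, a difference of 4.72 (1.60 to 8.31). At 23 nt the annotated start held 64.7% and 65.4%, with an interval of -5.36 to 6.60, so no difference was detectable there. The +2 start had a lower share in Ia_low at 21 nt (271 and 8 reads), 22 nt (448 and 45) and 23 nt (246 and 54). The intervals excluded 0 at each, and rest on few reads in Ia_low. At 20 nt, with 58 and 26 reads, its share was 33.5% and 72.2%, with an interval that included 0 (-18.1 to 68.8).

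The 3' ends went with the starts. Without their tails, 91.4% of +3 reads in Ia_high and 91.8% in Ia_low ended at base 64, the last of the hairpin. Of the annotated start, 62.2% and 61.4% ended at base 62, the annotated end. Over the arm, base 64 held 52.4% of ends in Ia_high and 38.3% in Ia_low, base 62 26.5% and 32.6%, base 63 13.1% and 16.0%, base 61 6.60% and 12.0%, and base 60 1.04% and 0.670%. In miR-142-5p, ends of the -2 start fell on base 21 (72.6% and 41.2%), base 22 (10.8% and 20.8%) and base 23 (13.8% and 36.4%). Ends at base 20 made up 1.73% of the arm in Ia_high and 0.302% in Ia_low. The annotated start of this arm ended on base 24, its annotated end, in 86.4% and 89.5% of reads. The +1 and +2 starts of miR-142-3p, in contrast to the +3 start, often ended at base 62, with 52.3% and 42.1% of +1 reads and 49.3% and 41.4% of +2 reads. Base 63 held 39.1% and 46.0% of +1 reads and 36.9% and 15.8% of +2 reads, against 11.1% and 9.33% of the annotated start. Base 64 held 4.17% and 23.3% of +2 reads (43 and 31 reads).

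The hairpin was folded to set these ends against each other, with RNAfold, which placed 22 base pairs. In the stem, bases whose positions sum to 64 face each other, such as base 3 with base 61 and base 21 with base 43. Drosha and Dicer each typically leave a 3' overhang of 2 bases on the duplex. The 22 nt tag of the -2 start and the 22 nt tag of the +3 start, both of them prominent in these libraries, would pair with a 3' overhang of 2 nt at the base and 2 nt at the loop side. The 20 nt tag of the -2 start with the same partner leaves 2 nt at the base and 0 nt at the loop side. The annotated pair, 21 nt and 23 nt, also has 2 nt at the base and 0 nt at the loop side. Compared within 22 nt, the -2 tag was 1.54-fold lower in Ia_low (ratio 0.648, 0.595 to 0.705) and the +3 tag 1.97-fold lower (ratio 0.507, 0.451 to 0.569). Both intervals cover counting error only, and whether the 2 ratios differ was not tested. These facing positions are a description of the predicted fold, and the tags were not observed as pairs.

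Untemplated 3' bases were more frequent on miR-142-5p in Ia_low. They were on 8674 reads in Ia_high, 4.96% (4.76 to 5.17) of the arm, and 2823 reads in Ia_low, 13.1%, a difference of 8.18 percentage points (6.83 to 9.61). The difference lay on the -2 start, with 5.70% and 16.1%, and not measurably on the annotated start, with 1.83% and 2.04% (interval of the difference -0.91 to 1.96). Within a length it varied: at 22 nt 22.1% and 23.1% of reads were tailed, a difference of 0.914 points (-2.05 to 4.05), and at 23 nt 68.1% and 77.6%, a difference of 9.47 points (0.23 to 17.4). At 20 nt, the length that weighed more in Ia_high, only 0.304% and 0.128% were tailed. miR-142-3p had 16.1% and 17.6% tailed reads, with an interval of -1.10 to 4.44.

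Tails on miR-142-5p were mostly a single base. T (U in RNA) made up 38.5% of tailed reads in both libraries, A 34.7% in Ia_high and 32.9% in Ia_low, and C 6.91% and 8.71%. They sat mainly on the -2 start after base 22, where 40.7% of reads in Ia_high and 58.0% in Ia_low were tailed, against 0.330% and 1.33% after base 21. An added base equal to the next hairpin base counted as templated. An A added after base 21 was thus read as an end at base 22. In the same way, A after base 24 and T after base 62 were hidden. Tailed shares of different ends and starts are therefore not directly comparable. The leading tailed tags of each arm are shown because the tail is visible in them, with the tail in capitals.
miR-142-5p start -2, T tail: cccataaagtagaaagcactaT
miR-142-5p start -2, A tail: cccataaagtagaaagcactaA
miR-142-3p start 0, T tail: tgtagtgtttcctactttatggT
miR-142-3p start +1, C tail: gtagtgtttcctactttatggaC
The T-tailed 5p tag had 3025 reads in Ia_high and 1035 in Ia_low, and the A-tailed one 2133 and 648. On miR-142-3p the tails were T (42.1% and 44.3% of tailed reads), C (23.3% and 15.4%), the pair CT (18.1% and 16.5%) and A (5.34% and 9.73%). A tail of 1 base cannot be told apart from a sequencing error or an RNA edit at the last base of a read. By start, 19.7% and 21.1% of reads of the annotated 3p start were tailed, 37.6% and 30.2% of the +1 start, 40.1% and 35.3% of the +2 start, and 6.70% and 6.85% of the +3 start. Tails, as counted here, were thus frequent on the starts that end mostly at bases 61 to 63. They were rare on the +3 start, which ends at base 64, in both libraries.

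**Figure D4:**
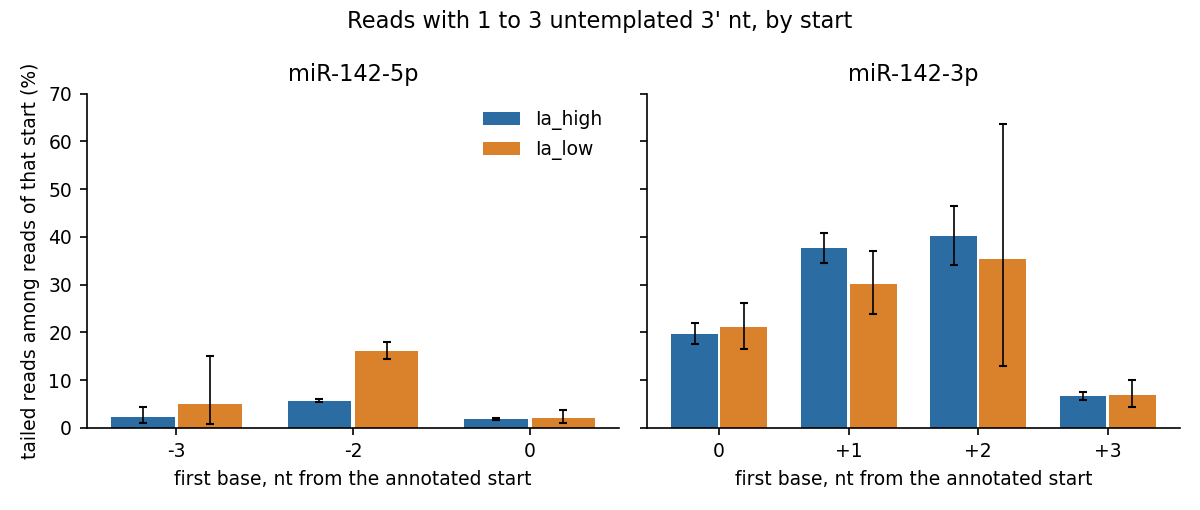
Share of the reads of each start (%) that carry 1 to 3 untemplated 3' bases, by start in nt from the annotated first base, in Ia_high (blue) and Ia_low (orange), with 95% counting intervals. On miR-142-5p the -2 start differs, with 5.70% and 16.1%. On miR-142-3p the +1 and +2 starts carry the most counted tails and the +3 start the fewest in both libraries. An added base equal to the next hairpin base is not counted as a tail.

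Both arms were among the less precise miRNAs in where they start. Of 89 arms with 1000 reads or more in each library, the median arm had 99.0% (Ia_high) and 99.3% (Ia_low) of reads at its most common start. miR-142-3p, with 56.7% and 40.8%, ranked 6 and 5 from the lowest, and miR-142-5p, with 80.1% and 78.1%, ranked 16 and 15. The median tailed share of these arms was 16.9% in Ia_high and 22.9% in Ia_low. That of miR-142-5p was below it in both libraries. That of miR-142-3p was close to it in Ia_high (16.1%) and below it in Ia_low (17.6%). miR-142-5p ranked 13 from the lowest in Ia_high and 29 in Ia_low, and miR-142-3p 44 and 39.

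The arms whose ratio lay nearest that of miR-142-5p (log2 -2.002), among 118 averaging 100 CPM or more, were Mir16-1-3p (-2.02), Mir143-3p (-1.99), Mir19b-1-3p (-1.98), Mir203-3p (-1.87) and Mir181a-1-3p (-1.73). Weighted by length, when miR-142-5p had -1.21, they ranged from -1.89 (Mir19b-1-3p) to -1.34 (Mir143-3p). Nearest miR-142-3p (-0.57) were Mir191-5p (-0.54), Mir181b-1-5p (-0.51), Mir93-5p (-0.50), Mir186-5p (-0.49) and Mir425-5p (-0.46). Likeness here means the difference of 1 log2 ratio between 2 libraries and nothing more.

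Set beside 10 miRNA genes typical of blood cells, miR-142-5p had a lower ratio than 8. Of the 10, each by the arm with the higher CPM summed over both libraries, 3 were lower in Ia_low by the call rule, 0 higher and 7 neither, where 27.9% of all arms were lower and 8.91% higher, with a median log2 ratio of -0.39 against -0.32 over the 258 arms. The 3 were Mir144-5p (25.7 and 4.39 CPM) and Mir451a-5p (53.6 and 9.33 CPM), both erythroid, and Mir126a-5p (77.7 and 28.0 CPM), which no longer met the rule when weighted by length. The lymphocyte-rich Mir150-5p had 5827 and 5623 CPM and the myeloid Mir223-3p 1172 and 973 CPM. The other arm, Mir223-5p, had 675 and 1073 CPM, more than the 3p arm in Ia_low and with a ratio of 1.59 in the opposite direction, also not called. Mir146-5p, the product called miR-146a, had 12796 and 18498 CPM, Mir155-5p 86.2 and 137 CPM and Mir342-3p 1577 and 2255 CPM. Mir181a-1-5p had 173467 and 105894 CPM, and Mir181b-1-5p 6633 and 4646 CPM.

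**Figure D5:**
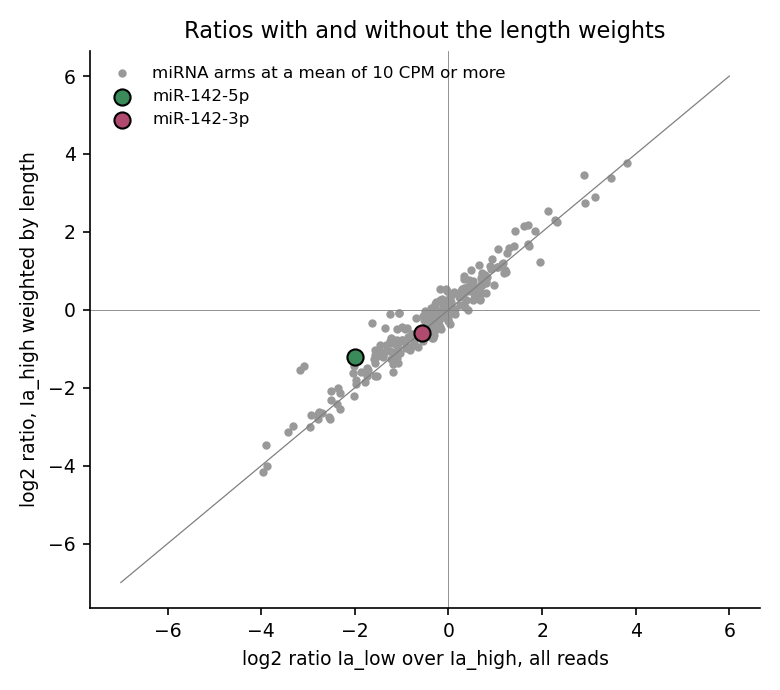
Log2 ratio of Ia_low over Ia_high of each miRNA arm averaging 10 CPM or more, from all reads (x axis) and with Ia_high reads weighted by length (y axis); the line marks equal values. miR-142-5p moves from -2.002 to -1.21 and stays below 0, and miR-142-3p lies at -0.57 and -0.58.

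Fragments of mRNAs reported elsewhere as miR-142 targets showed no common direction. Of 12 genes, 9 had 10 distinct fragments or more in both libraries together. Of these, 1 was lower in Ia_low by the call rule, 2 were higher and 6 were neither, and over all 7010 genes 9.42% were lower and 6.11% higher. The median log2 ratio was 0.30, against -0.13 over all genes. Tgfbr1, a TGF-beta receptor, had 71 fragments in Ia_high and 76 in Ia_low (ratio 2.60, 1.86 to 3.65), and Cd84, an adhesion receptor of leukocytes, 11 and 18 (ratio 3.98, 1.78 to 9.32). Il6st, the shared receptor chain of the interleukin 6 family, had 130 and 24 fragments, 2.23-fold lower (ratio 0.449, 0.277 to 0.697). Among the 6 others were the GTPase Rac1 (93 and 47), Wasl, a regulator of actin (23 and 4), and Itgav, an integrin chain (48 and 35). Il6 (1 and 0), Adcy9 (2 and 0) and Cfl2 (6 and 2) were too rare to compare. These fragments are traces of mRNA in a small RNA library and no measure of protein or of targeting.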

How the data were processed

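The files hold, per library, the length of each distinct sequence (tag) and its count of reads, as deposited by the authors without scaling. For trimming, filtering and mapping before deposit, the sources used here give no detail. Per the labels' protocols, small RNA below 30 bases was cut from a polyacrylamide gel, ligated to a pair of adaptors, amplified for 12 cycles and isolated at around 90 bp. Matching used the 1178 hairpins of GENCODE M21 (of 2202 miRNA transcripts) whose symbol names a miRNA. The smallest trim that matched was used, arms were split at the middle of the hairpin, arms with the same top tag were merged, and ambiguous reads (0.515% in Ia_high, 0.271% in Ia_low) were left out. Intervals are Clopper-Pearson intervals at 95%, and those of differences in percentage points combine the exact intervals of both libraries by their squared distances (Newcombe). Length weights are, for each length, the median over other arms with 30 reads or more of the log2 ratio relative to 22 nt. mRNA fragments are distinct tags of 20 to 30 nt in transcripts of 1 protein-coding gene, 324094 in Ia_high and 133350 in Ia_low, and a gene at 0 was set to 3 for list medians. Named were all starts, lengths, ends and tails with 1% or more of an arm's reads, the 5 nearest arms, and the dendritic cell, Ly6C-low monocyte, B cell, T cell, NK cell, neutrophil, erythroid, platelet, blood miRNA and reported target lists. The members and lists were chosen with earlier results of these data known. Matching and intervals were tested on simulated data. Python 3.11.15, scipy 1.17.1 and RNAfold 2.7.2 were used.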

Additional observations from a re-analysis of the deposited data

Results flagged for a closer look

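These reads lie at the Mir142 locus and outside the members. Sense tags that reach past the hairpin, matched to the longer Mir142b sequence read on the plus strand, had 317 reads (27 tags) in Ia_high and 117 reads (4 tags) in Ia_low. Most began next to the ends of miR-142-3p. From base 62 there were 72 and 14 reads. From base 63, the base after the annotated end, there were 134 and 103 reads (18.1 and 28.3 CPM). From base 65, the base after the end of the +3 tags, there were 68 and 0 reads (9.18 CPM in Ia_high). The 0.823 CPM allowed by 0 reads in Ia_low counts each read as 1 molecule and is too low, so absence there cannot be told. In Ia_high alone, 23 reads began 22 bases before base 0 and ended at base 0, 3 or 4. Tags longer than 30 nt that matched the precursor had 14 reads in Ia_low and 0 in Ia_high. Tags with 1 mismatch to the hairpin had 1682 reads (284 tags) in Ia_high and 244 reads (101 tags) in Ia_low, 0.848 and 0.834 per 100 member reads. Each of these was listed because its reads in that library exceed the 3 that a count of 0 allows when each read counts as 1 molecule.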

How the results depend on the processing

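Of 35 alternatives, 18 stayed within the counting interval of the reported value, 14 moved and 3 reversed. No paired analysis was possible because each group has 1 library, and for the same reason no library could be left out. For the ratio of Ia_low over Ia_high, scaling to all reads gave 0.394 (3p) and 0.147 (5p), centring on the median arm 0.836 and 0.311, and 22 nt tags only 0.554 and 0.650; the length weights gave 0.432 for 5p. The arm balance difference of -1.43 was -0.63 with the length weights, -0.99 with only the most common start of each arm and reversed to 0.23 at 22 nt. The difference of 11.6 percentage points in the annotated 3p start was 3.69 at 22 nt and 7.94 with the length weights. The difference of -2.02 points in the -2 start of 5p was -4.08 with exact matches only, and reversed to 0.799 at 22 nt and 0.923 with the length weights. The 5p tail difference of 8.18 points was 10.4 at the -2 start alone and 0.914 at 22 nt. The count of genome bases past the hairpin end as templated, chosen after seeing the data, changed no tailed share. The cause of these changes was not tested beyond what the fixed length shows by construction. Depth limits 3p most: in Ia_low its 7757 reads left wide intervals for the +2 start and for lengths other than 22 to 24 nt.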

Other observations

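No tag of either library equalled a stretch of the opposite strand, Mir142b, over its 115 nt. The product annotated there shares its seed with the -2 start of miR-142-5p and was thus not detected at this depth. The bound for 0 reads, 0.405 CPM in Ia_high and 0.823 CPM in Ia_low, counts each read as 1 molecule and is too low. The spliced host transcript Mir142hg, 269 nt, had 1 tag in each library, with 5 reads in Ia_high and 13 in Ia_low.

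Among reads with 1 mismatch, positions are counted from base 1 of the hairpin, with the hairpin's base first. Base 2, the first base of the -2 start, held 24.5% of them in Ia_high and 20.1% in Ia_low, with C2G at 232 and 24 reads and C2A at 120 and 24. A-to-G changes, the kind that adenosine deaminases leave in RNA, made up 320 of the 1682 reads in Ia_high and 63 of the 244 in Ia_low. A5G had 64 and 9 reads, 0.0366% and 0.0419% of the member reads over that base. A8G had 48 and 21 reads, 0.0274% and 0.0977%. A9G had 60 and 8 reads, 0.0343% and 0.0372%. A43G, in miR-142-3p, had 38 and 10 reads, 0.162% and 0.129%. Base 43 is the first base of the +3 start, and C2G, at the first base of the -2 start, stood at 0.164% and 0.139%. Among changes of another kind inside the reads, T11C had 70 and 6 reads, 0.0400% and 0.0279%. These were named after their values were seen, and sequencing error and edits cannot be told apart at this level.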
